A study of Mus musculus with 21 samples.

Results

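Akr1b10, Rin2, Ptpro, Calhm2, Themis2, Sgpp1, Spata13, Calcrl and Cnr2 are 9 signalling and lipid genes chosen, of 12393 mouse genes measured, because they fell most in cultured macrophage-like cells given a high dose of 500 nm silica and belong to none of the other gene families described for these cells. The cells were RAW 264.7, an established mouse macrophage-like tumour line, so each group stands for 1 cell line in culture and not for macrophages of an animal. Affymetrix arrays measured their RNA after 2 h with amorphous silica of 10 nm at 5, 20 or 50 µg/ml or of 500 nm at 250, 500 or 1000 µg/ml, or with no particles, on 3 arrays in each of 7 groups, 21 in all. The particles were given in medium without serum; the labels do not say whether the untreated cells were also moved to that medium. Dose divided by particle diameter gives a nominal surface area that is equal at the low doses of both sizes. Relative to that low dose the 10 nm groups held 1, 4 and 10 units of area and the 500 nm groups 1, 2 and 4.

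These genes act at several steps by which a macrophage reads and answers signals. Calcrl and Cnr2 are receptors of the cell surface, Ptpro is a receptor-type phosphatase that removes phosphate from tyrosines, and Calhm2 forms a large-pore channel. Themis2 is an adaptor that links activated receptors to exchange factors, Rin2 and Spata13 are exchange factors that load small GTPases with GTP, and Sgpp1 and Akr1b10 are enzymes that act on a signalling lipid and on aldehydes. Exchange factors of this kind take part in the uptake of material into endosomes and the remodelling of the cell edge, processes for which macrophages are known.

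The members share no single short promoter motif among those searched. RefSeq promoters (GRCm38.p6) were matched by symbol for 9 of 9 members and gave 11 windows, since Cnr2 and Spata13 have more than 1 start, and the 250 bases before each start were searched on both strands. CCAAT, the CCAAT box, stood in the windows of Cnr2, Rin2 and Sgpp1, 3 of 11, against 33.8% of all 32851 windows of that length in the table. GGGCGG, the GC box, stood in those of Akr1b10 and Calcrl, 2 of 11, against 32.7% of all. GAGGAA, a core bound by the myeloid factor PU.1, was found in 0 of 11, against 23.3% of all windows. The AP-1 motif TGANTCA and the cyclic AMP response element, spelled TGACGTCA, were each found in 0 of 11, against 6.75% and 1.55% of all windows. TATAAA, the TATA box, was found in 0 of 11 against 12.4%. The windows also differed in composition, with 3 to 24 CpG dinucleotides against a median of 6 over the table. The windows of 3 of the 5 members with a match are shown because they belong to the member with the largest fall between 10 nm doses (Rin2) and to the lipid and aldehyde enzymes, and their capitals mark the matched letters; those of Rin2 and Akr1b10 lie on the other strand, so that they read as the reverse complement. The matches shown do not overlap one another, and a match is a description of letters only.
Rin2, chr2:145785866-145786115, plus strand, CCAAT box 112 to 108 bases before the start: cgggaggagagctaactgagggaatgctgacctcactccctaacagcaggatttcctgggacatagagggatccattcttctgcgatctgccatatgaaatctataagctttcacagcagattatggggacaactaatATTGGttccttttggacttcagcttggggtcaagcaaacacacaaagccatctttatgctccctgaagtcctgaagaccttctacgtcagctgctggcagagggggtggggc
Sgpp1, chr12:75735730-75735979, minus strand, CCAAT box 149 to 145 bases before the start: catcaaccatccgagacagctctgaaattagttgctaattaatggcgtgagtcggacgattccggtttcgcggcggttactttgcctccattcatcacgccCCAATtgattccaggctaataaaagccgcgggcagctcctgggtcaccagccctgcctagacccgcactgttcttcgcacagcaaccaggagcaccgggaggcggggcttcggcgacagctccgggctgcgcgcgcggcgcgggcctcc
Akr1b10, chr6:34383997-34384246, plus strand, GC box 37 to 32 bases before the start: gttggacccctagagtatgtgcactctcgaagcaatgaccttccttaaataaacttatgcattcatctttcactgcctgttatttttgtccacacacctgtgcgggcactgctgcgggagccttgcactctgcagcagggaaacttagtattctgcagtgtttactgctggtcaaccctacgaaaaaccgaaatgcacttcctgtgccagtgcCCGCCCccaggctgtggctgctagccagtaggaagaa

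The 9 genes were chosen by the differences between 500 nm silica at 1000 µg/ml and untreated cells, on a log2 scale on which 1 unit is a doubling. These ran from −1.99 ± 0.13 (SE, 3 arrays against 3) in Akr1b10, or 3.99-fold lower, to −1.46 ± 0.22 in Cnr2, or 2.75-fold lower. Among all genes ranked by that difference, 8 of the 9 members took ranks 2 to 9, behind Abca1 at −2.12, and Cnr2 took rank 24. Around that edge of the choice Gpr65 stood at −1.48 just above Cnr2 and Ccnj at −1.43 just below it, and both are outside the 9, as are the genes on ranks 10 to 23. Every member's 3 arrays at that dose lay below its 3 untreated arrays, as did those of 15.9% of all genes; since this contrast was the choice, nothing is read from it. All comparisons with untreated cells share these control arrays, and the arrays measure RNA of the whole culture, in which fewer cells holding a transcript and less of it per cell cannot be told apart. For the 9 genes they are therefore given as descriptions without a test. Tests of the 9 genes are kept to contrasts between silica groups that hold neither the untreated arrays nor the 500 nm 1000 µg/ml arrays. Other genes, given further below, were tested against untreated cells.

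Calcrl is the seven-pass receptor that pairs with RAMP proteins to bind calcitonin gene-related peptide and adrenomedullin. Calcrl in untreated cells read 7.82, 7.81 and 8.81 (log2 value of each array). Calcrl with 10 nm silica read 7.99, 7.93 and 7.86 at 5 µg/ml, 7.22, 7.25 and 7.65 at 20, and 7.12, 7.35 and 7.93 at 50. Calcrl with 500 nm silica read 7.85, 7.90 and 8.20 at 250 µg/ml, 7.81, 7.48 and 7.59 at 500, and 6.64, 6.35 and 6.58 at 1000. The third untreated array stood about a unit above the other two, and only the 500 nm 1000 µg/ml arrays lay clear of every other group. Against untreated cells the difference was −0.23, −0.78 and −0.68 ± 0.23 (SE) over the rising 10 nm doses and −0.16, −0.52 and −1.63 over the 500 nm doses. Without the third untreated array these became 0.11, −0.45 and −0.35, and 0.17, −0.19 and −1.29, so that both low doses turned from below to above untreated cells. Between 10 nm doses, Calcrl did not pass the test: 20 against 5 µg/ml gave −0.55 ± 0.23 (limma adjusted p = 0.221, Benjamini-Hochberg over all genes) and 50 against 5 µg/ml −0.46 ± 0.23 (adjusted p = 0.211).

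Cnr2 is cannabinoid receptor 2, the cannabinoid receptor of immune cells, which signals through inhibitory G proteins. Cnr2 in untreated cells read 5.56, 5.77 and 4.82. Cnr2 with 10 nm silica read 5.46, 5.96 and 5.45 at 5 µg/ml, 5.01, 4.95 and 4.56 at 20, and 4.45, 4.42 and 4.30 at 50. Cnr2 with 500 nm silica read 5.47, 5.60 and 5.35 at 250 µg/ml, 4.64, 5.30 and 4.80 at 500, and 3.85, 4.26 and 3.68 at 1000. The mean lay above that of untreated cells at the low doses of both sizes, by 0.24 and 0.087 ± 0.23 (SE, 10 nm and 500 nm), with arrays that overlapped; without the third untreated array, at 4.82, these differences turned to −0.043 and −0.19. By contrast the 10 nm 50 µg/ml and 500 nm 1000 µg/ml arrays lay below all others. It was also the dimmest of the 9, with a mean of 4.94 over all arrays, below the array medians of 6.16 to 6.29. Cnr2 fell between 10 nm doses, by 1.24 ± 0.22 from 5 to 50 µg/ml (adjusted p = 0.00104) and by 0.79 ± 0.22 from 5 to 20 µg/ml (adjusted p = 0.0477). The second of these calls was lost on leaving out any 1 of the 6 arrays compared (adjusted p 0.00147 to 0.26 over all alternatives). From 250 to 500 µg/ml of 500 nm silica the difference was −0.56 ± 0.22 (adjusted p = 1.0).

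Ptpro is a receptor-type protein tyrosine phosphatase with an extracellular part of fibronectin-type repeats. Ptpro in untreated cells read 8.31, 8.21 and 8.91. Ptpro with 10 nm silica read 7.69, 7.68 and 7.75 at 5 µg/ml, 6.96, 7.06 and 7.10 at 20, and 7.12, 6.96 and 7.22 at 50. Ptpro with 500 nm silica read 7.80, 7.54 and 7.75 at 250 µg/ml, 7.14, 7.19 and 7.26 at 500, and 6.66, 6.44 and 6.40 at 1000. All 18 silica arrays lay below all 3 untreated ones, already at the low doses, where both sizes read alike; the 10 nm 50 µg/ml arrays overlapped both those of 10 nm 20 µg/ml and those of 500 nm 500 µg/ml, which lay apart from each other. Against untreated cells the low doses differed by −0.77 and −0.78 ± 0.14 (SE, 10 nm and 500 nm), and without the third untreated array by −0.56 and −0.56. Ptpro fell by 0.67 ± 0.14 from 5 to 20 µg/ml of 10 nm silica (adjusted p = 0.00652) and by 0.60 ± 0.14 from 5 to 50 µg/ml (adjusted p = 0.0075), a call lost after quantile normalization (−0.48) and rescaling (−0.51). From 250 to 500 µg/ml of 500 nm silica it differed by −0.50 ± 0.14 (adjusted p = 0.273).

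Calhm2 belongs to the calcium homeostasis modulators, channels wide enough to pass ATP. Calhm2 in untreated cells read 8.08, 8.18 and 7.70. Calhm2 with 10 nm silica read 7.45, 7.39 and 7.55 at 5 µg/ml, 6.87, 6.88 and 7.06 at 20, and 7.09, 6.99 and 6.79 at 50. Calhm2 with 500 nm silica read 7.73, 7.60 and 7.67 at 250 µg/ml, 7.32, 7.20 and 7.34 at 500, and 6.19, 6.17 and 6.04 at 1000. The 500 nm 1000 µg/ml arrays stood well apart from all others, and the untreated arrays overlapped only those of 500 nm 250 µg/ml. Calhm2 fell by 0.53 ± 0.12 from 5 to 20 µg/ml of 10 nm silica (adjusted p = 0.00927) and by 0.51 ± 0.12 from 5 to 50 µg/ml (adjusted p = 0.00701). Leaving out the first 20 µg/ml array took the first of these calls past the threshold, at −0.50 (adjusted p = 0.0568; 1.62e-05 to 0.0568 over all alternatives).

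Themis2 is an adaptor of macrophages and B cells that binds Grb2 and Vav proteins downstream of immune receptors. Themis2 in untreated cells read 7.85, 7.80 and 8.23. Themis2 with 10 nm silica read 7.61, 7.82 and 7.53 at 5 µg/ml, 6.38, 6.48 and 6.67 at 20, and 6.72, 6.62 and 6.76 at 50. Themis2 with 500 nm silica read 7.57, 7.36 and 7.43 at 250 µg/ml, 6.87, 6.80 and 6.74 at 500, and 6.25, 6.17 and 6.17 at 1000. The low doses overlapped each other. The 10 nm 5 µg/ml arrays also overlapped untreated cells, while all 500 nm 250 µg/ml arrays lay below them, at a difference of −0.51 ± 0.12 (SE). The 10 nm 50 µg/ml arrays overlapped those of 10 nm 20 µg/ml and of 500 nm 500 µg/ml, which lay apart from each other. The 500 nm 1000 µg/ml arrays were lowest with no overlap. Themis2 fell by 1.14 ± 0.12, or 2.21-fold, from 5 to 20 µg/ml of 10 nm silica (adjusted p = 3.63e-06) and by 0.95 ± 0.12 from 5 to 50 µg/ml (adjusted p = 2.17e-05). It also fell from 250 to 500 µg/ml of 500 nm silica, by 0.65 ± 0.12 (adjusted p = 0.00807). That call was lost without the first 250 µg/ml array (−0.59) or the third 500 µg/ml array (−0.62), and its adjusted p ran from 4.84e-05 to 0.0686 over all alternatives.

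Rin2, the Ras and Rab interactor, is an exchange factor for Rab5, the GTPase of early endosomes. Rin2 in untreated cells read 7.93, 8.17 and 8.16. Rin2 with 10 nm silica read 7.99, 7.88 and 7.58 at 5 µg/ml, 6.65, 6.78 and 6.60 at 20, and 6.49, 6.57 and 6.10 at 50. Rin2 with 500 nm silica read 7.66, 7.82 and 7.69 at 250 µg/ml, 7.31, 7.35 and 7.06 at 500, and 6.06, 6.04 and 6.19 at 1000. The low doses overlapped untreated cells or each other, after which the groups separated: 500 nm 500 µg/ml, 10 nm 20 µg/ml and 10 nm 50 µg/ml each lay below the one before, and the last overlapped 500 nm 1000 µg/ml. Rin2 fell by 1.43 ± 0.13, or 2.70-fold, from 5 to 50 µg/ml of 10 nm silica (adjusted p = 5.92e-07), the largest difference of a member in any tested contrast, and by 1.14 ± 0.13 from 5 to 20 µg/ml (adjusted p = 1.66e-05). From 20 to 50 µg/ml it differed by −0.29 ± 0.13 (adjusted p = 0.875), and from 250 to 500 µg/ml of 500 nm silica by −0.48 ± 0.13 (adjusted p = 0.245).

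Spata13, also known as Asef2, is an exchange factor for the small GTPases Rac and Cdc42 that shape the cell edge. Spata13 in untreated cells read 8.12, 7.98 and 7.50. Spata13 with 10 nm silica read 7.60, 7.50 and 7.42 at 5 µg/ml, 6.56, 6.61 and 6.36 at 20, and 6.77, 6.74 and 5.24 at 50. Spata13 with 500 nm silica read 7.64, 7.38 and 7.30 at 250 µg/ml, 7.14, 7.04 and 6.93 at 500, and 6.32, 6.44 and 5.73 at 1000. The third 10 nm 50 µg/ml array stood far below its 2 companions and spread that group over the 10 nm 20 and 500 nm 1000 µg/ml arrays. Spata13 fell by 1.26 ± 0.29 from 5 to 50 µg/ml of 10 nm silica (adjusted p = 0.00654), and by 0.75 without that array (adjusted p = 0.0161; 3.4e-05 to 0.0988 over all alternatives). Without it the difference from untreated cells at 50 µg/ml moved from −1.62 to −1.11, and that from 20 to 50 µg/ml turned from −0.26 to 0.25. From 5 to 20 µg/ml the difference was −0.999 ± 0.29 (adjusted p = 0.0525), just outside the threshold. It was called when dim genes were left out (adjusted p = 0.042), with array weights (3.99e-05) and when only the compared groups were fitted (0.00131), and its adjusted p ran from 3.99e-05 to 0.157 over all alternatives.

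Sgpp1 is the phosphatase of the endoplasmic reticulum that turns sphingosine 1-phosphate, a signalling lipid, back into sphingosine. Sgpp1 in untreated cells read 7.54, 7.71 and 7.85. Sgpp1 with 10 nm silica read 7.05, 7.15 and 6.88 at 5 µg/ml, 6.70, 6.78 and 6.81 at 20, and 6.52, 6.66 and 6.62 at 50. Sgpp1 with 500 nm silica read 7.23, 7.46 and 7.47 at 250 µg/ml, 6.75, 6.92 and 7.03 at 500, and 6.05, 5.92 and 5.97 at 1000. All silica arrays lay below all untreated ones, and 10 nm 5 µg/ml lay below 500 nm 250 µg/ml, while 10 nm 5, 500 nm 500 and 10 nm 20 µg/ml overlapped in turn. Sgpp1 fell by 0.43 ± 0.11 from 5 to 50 µg/ml of 10 nm silica (adjusted p = 0.0137). That call was lost without the second 5 µg/ml array (−0.37), after quantile normalization (−0.32) and after rescaling of the arrays (−0.36), and its adjusted p ran from 0.000921 to 0.123 over all alternatives. From 5 to 20 µg/ml Sgpp1 differed by −0.26 ± 0.11 (adjusted p = 0.228). From 250 to 500 µg/ml of 500 nm silica it differed by −0.49 ± 0.11 (adjusted p = 0.0542), just outside the threshold. It was called when dim genes were left out (adjusted p = 0.0324), with array weights (9.16e-05) and without the first 250 µg/ml array (0.0435), and its adjusted p ran from 9.16e-05 to 1.0 over all alternatives.

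Akr1b10 is an aldo-keto reductase, one of the enzymes that use NADPH to reduce aldehydes and ketones. Akr1b10 in untreated cells read 6.41, 6.37 and 6.42. Akr1b10 with 10 nm silica read 5.61, 6.08 and 5.82 at 5 µg/ml, 4.88, 4.83 and 5.00 at 20, and 5.12, 4.88 and 5.30 at 50. Akr1b10 with 500 nm silica read 5.68, 5.60 and 5.72 at 250 µg/ml, 4.92, 5.10 and 5.10 at 500, and 4.61, 4.13 and 4.47 at 1000. All silica arrays lay below the tightly grouped untreated ones; the low doses of both sizes overlapped, as did the 3 middle groups, and 500 nm 1000 µg/ml was lowest with no overlap. Akr1b10 fell by 0.94 ± 0.13 from 5 to 20 µg/ml of 10 nm silica (adjusted p = 0.000184), by 0.74 ± 0.13 from 5 to 50 µg/ml (adjusted p = 0.00115), and by 0.63 ± 0.13 from 250 to 500 µg/ml of 500 nm silica (adjusted p = 0.0403). The last call was lost on leaving out any 1 of the 6 arrays compared, and its adjusted p ran from 0.00024 to 0.27 over all alternatives.

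**Figure D1:**
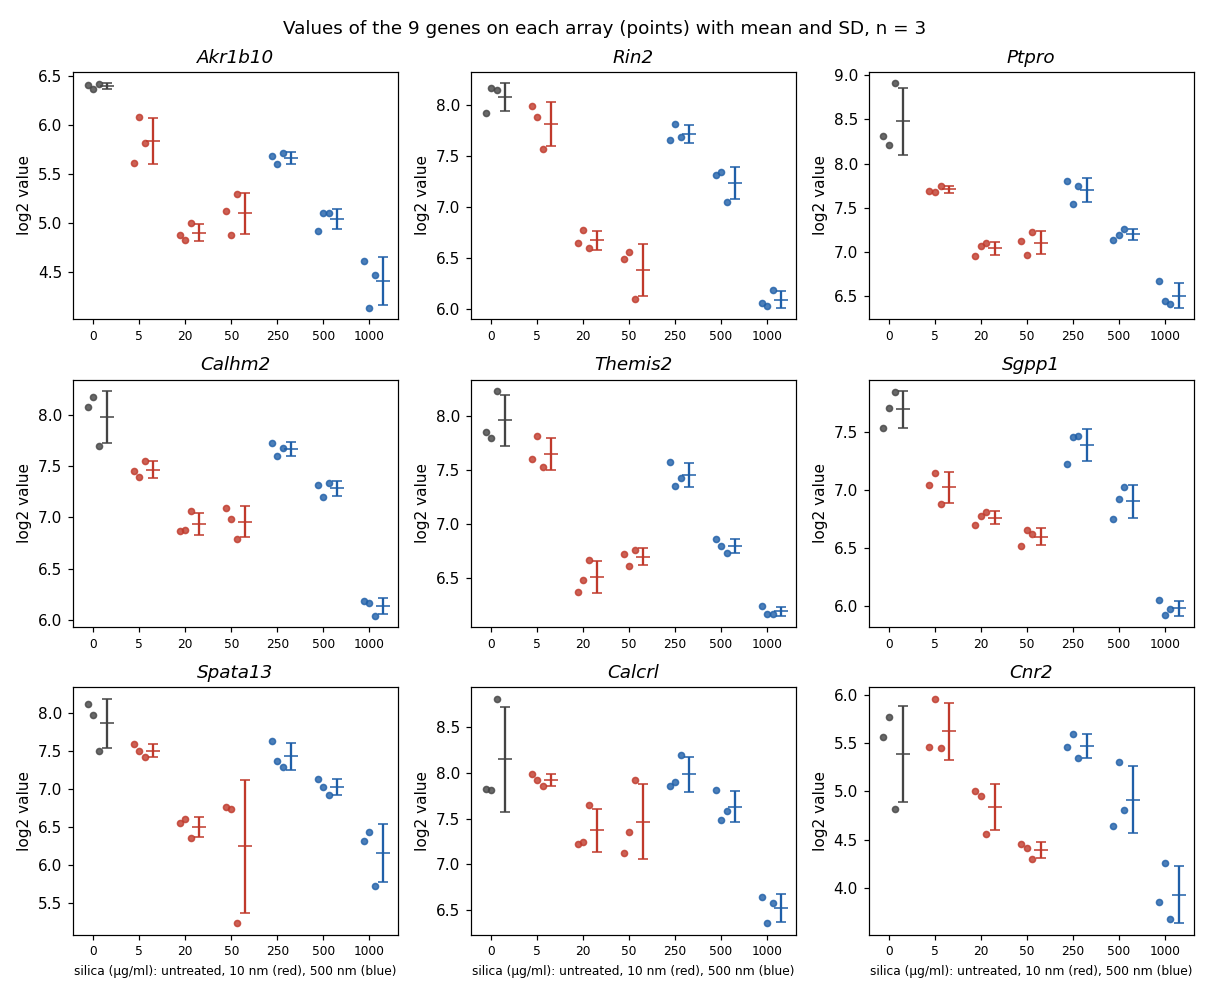
Log2 values of the 9 genes (vertical axes, one panel a gene) on each of the 21 arrays by silica dose in µg/ml, with untreated cells in grey, 10 nm silica in red and 500 nm silica in blue; points are arrays and the bars give the mean and SD of 3. In each panel the mean at the high dose of either size lies below that at its low dose, while 5 genes have a higher mean at 50 than at 20 µg/ml of 10 nm silica; the 500 nm 1000 µg/ml group has the lowest mean for every gene, and single arrays stand apart for Calcrl (untreated, 8.81) and Spata13 (10 nm 50 µg/ml, 5.24).

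Seen together against untreated cells, the 9 genes differed less at the low dose of either size than at its higher doses. The number with all 3 arrays below all 3 untreated ones was 4, 8 and 8 at 5, 20 and 50 µg/ml of 10 nm silica, against 4.44%, 15.4% and 16.4% of all genes. It was 5, 7 and 9 at 250, 500 and 1000 µg/ml of 500 nm silica, against 5.96%, 9.93% and 15.9%. The median difference of the 9 genes was −0.36, −1.36 and −1.26 over the 10 nm doses and −0.36, −0.83 and −1.77 over the 500 nm doses, where the median of all genes stayed between 0.0031 and 0.073. As a share of each gene's own difference at 500 nm 1000 µg/ml, which chose the genes and shares the untreated arrays, so that this is a description, the median gene had reached 21%, 70.8% and 68.5% at the 10 nm doses and 18.2% and 46.4% at the lower 500 nm doses. At 10 nm 20 µg/ml this share ran from 37.5% in Cnr2 to 82.4% in Themis2, and at 10 nm 50 µg/ml from 41.9% in Calcrl to 94.8% in Spata13, of which the third array is the low one named above, with 85.5% in Rin2.

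**Figure D2:**
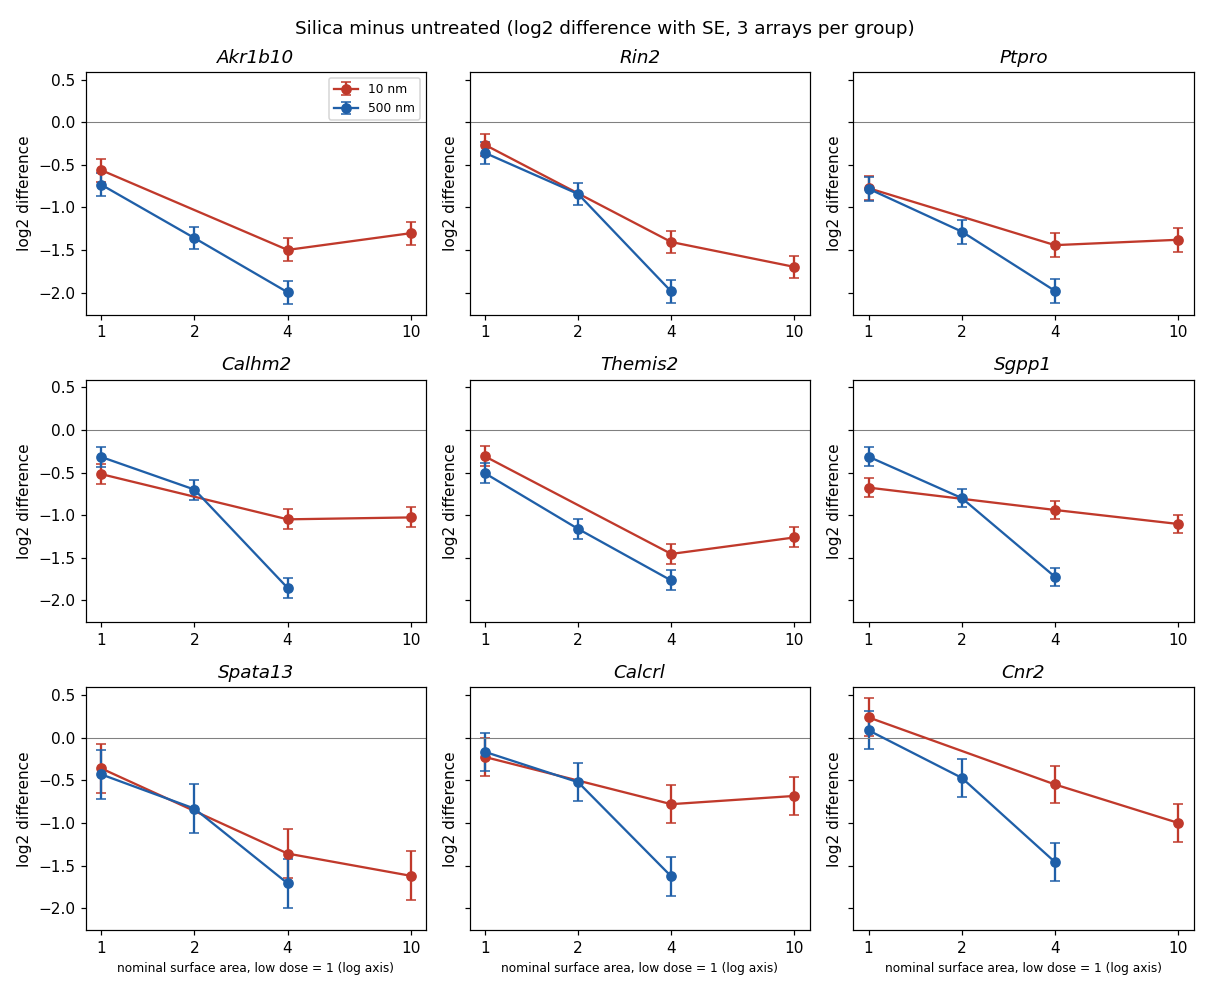
Difference from untreated cells (log2, with SE, 3 arrays a group) for each of the 9 genes against nominal particle surface area relative to the low dose, on a log axis, with 10 nm silica in red and 500 nm silica in blue. At 4 units of area the 500 nm mean lies below the 10 nm mean in every panel, and from 4 to 10 units the 10 nm mean moves down in Rin2, Sgpp1, Spata13 and Cnr2 and up in the other 5.

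In the contrasts that the choice did not use, the clearest step was the one from the low to the higher 10 nm doses. From 5 to 50 µg/ml, 8 of the 9 genes were called lower (limma adjusted p under 0.05), all but Calcrl, and 0 higher, where 8.67% of all genes were called lower and 3.05% higher; the median difference was −0.74 against 0.0042 over all genes. Fitted on the arrays of these 2 groups alone, 5 were called, without Calhm2, Sgpp1 and Spata13. From 5 to 20 µg/ml, 6 were called lower (Akr1b10, Rin2, Ptpro, Calhm2, Themis2 and Cnr2) and 0 higher, against 3.24% and 1.45% of all genes, with medians of −0.79 and −0.012. All 9 genes had their 20 µg/ml arrays below their 5 µg/ml arrays, as 14.6% of all genes did. The 5 µg/ml arrays also had a higher 3' minus 5' signal of control transcripts than the 20 µg/ml arrays, given further below. From 20 to 50 µg/ml, 0 of 9 were called and 4 of 9 had a lower mean, with a median of 0.022; the arrays of Rin2, Sgpp1 and Cnr2, 3 of 9, lay lower without overlap, against 4.14% of all genes. In that contrast limma called 0 of 12393 genes, 543 had an unadjusted p under 0.05, and Rin2 was the 1 member among them. The 95% intervals there still allow differences of −0.57 to −0.015 for Rin2, −0.92 to 0.014 for Cnr2 and −0.084 to 0.48 for Akr1b10.

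For 500 nm silica, the differences from 250 to 500 µg/ml were smaller, with a median of −0.49, but this step covers only 1 to 2 units of area. The steps from 5 to 20 and 5 to 50 µg/ml of 10 nm silica cover 1 to 4 and 1 to 10 units, so the sizes of these steps are not like for like. All 9 genes lay lower at 500 µg/ml with no overlap of arrays, as 6.41% of all genes did, and 2 were called lower (Themis2 and Akr1b10), against 0.0646% of all genes; 46 genes were called higher. An unadjusted p under 0.05 was reached by 7 of the 9, all but Spata13 and Calcrl, and the differences ran from −0.65 to −0.36. From 500 to 1000 µg/ml the 9 genes differed by −1.15 (Calhm2) to −0.61 (Themis2), all with no overlap where 9.49% of all genes had none; as the 1000 µg/ml arrays chose the genes, this is a description.

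Particle size made little measured difference at the low dose, where nominal areas are equal. Between 10 nm at 5 µg/ml and 500 nm at 250 µg/ml, 0 of 9 genes were called by limma; 11 of all genes were, 1 of them lower (0.00807%) and 10 higher (0.0807%). Arrays lay lower without overlap in Calhm2 and Sgpp1, 2 of 9, against 3.72% of all genes, and Sgpp1 was the 1 member with an unadjusted p under 0.05, at −0.36 ± 0.11 (adjusted p = 0.605). The 95% intervals exclude a difference over 0.5 either way for Akr1b10 (−0.11 to 0.45), Rin2 (−0.18 to 0.37), Ptpro (−0.29 to 0.30), Calhm2 (−0.45 to 0.043) and Themis2 (−0.047 to 0.44), but not for Sgpp1 (−0.59 to −0.14), Spata13 (−0.54 to 0.67), Calcrl (−0.53 to 0.41) and Cnr2 (−0.31 to 0.62). Between the middle doses, whose areas of 4 and 2 units are not matched, all 9 genes had the lower mean with 10 nm silica at 20 µg/ml and 1, Rin2, was called, against 1.25% of all genes called lower and 1.31% higher. Rin2 averaged 6.68 ± 0.091 (SD, n = 3) there and 7.24 ± 0.16 with 500 nm silica at 500 µg/ml, a difference of −0.56 ± 0.13 (SE; adjusted p = 0.0232). That call was lost without the first or the third 10 nm 20 µg/ml array or the first or the second 500 nm 500 µg/ml array, and its adjusted p ran from 0.000221 to 0.12 over all alternatives.

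At the equal area of 4 units, 500 nm 1000 µg/ml lay below 10 nm 20 µg/ml for all 9 genes, by −0.91 (Cnr2) to −0.31 (Themis2), with no overlap in 8 of them against 8.66% of all genes. Against 10 nm 50 µg/ml, the differences ran from −0.94 in Calcrl to −0.088 in Spata13, with no overlap in 7 against 9.15%; Rin2 and Spata13 overlapped. Both are descriptions, since those arrays chose the genes.

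**Figure D3:**
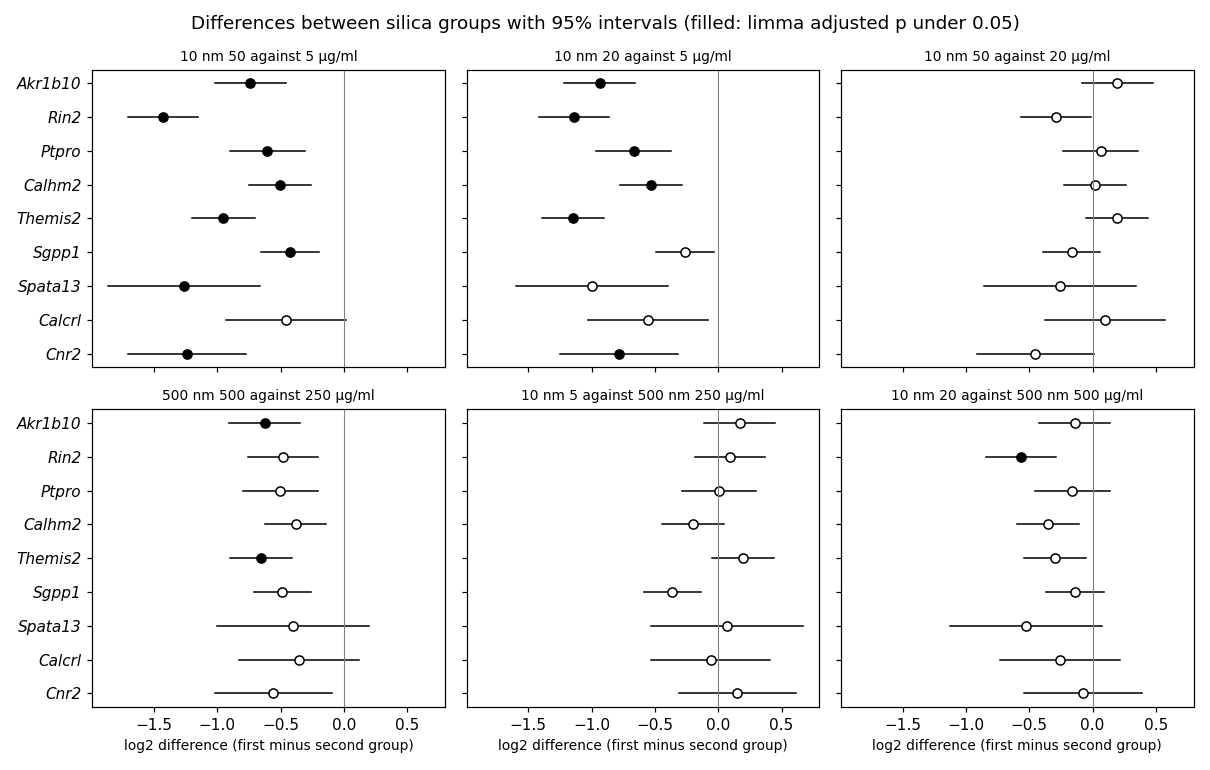
Differences between silica groups (log2, first minus second group, with 95% intervals not adjusted for the number of genes) for the 9 genes in the 6 contrasts that use neither untreated nor 500 nm 1000 µg/ml arrays; filled points have a limma adjusted p under 0.05. Filled points number 8, 6 and 0 in the 10 nm contrasts, 2 in the 500 nm contrast, and 0 and 1 between sizes, all to the left of 0.

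A second look at the same transcripts came from other probe sets, which 4 of the 9 genes have on this array. For Sgpp1, the second probe set (mean 6.16) differed from untreated cells by −1.19 and −1.72 ± 0.20 at 10 nm 20 and 50 µg/ml and by −1.81 at 500 nm 1000 µg/ml. The remaining one (mean 6.06) gave −0.68, −0.91 and −0.85 ± 0.35, where the brightest set gave −0.94, −1.10 and −1.72 ± 0.11. For Ptpro, the other probe set (mean 5.79) stood already at −1.28 ± 0.39 at 10 nm 5 µg/ml. It reached −1.60 and −1.61 at the high doses of both sizes (10 nm and 500 nm), where the brightest set gave −1.38 and −1.98. With the mean of both sets the step from 5 to 50 µg/ml was −0.46 (adjusted p = 0.118; 2.36e-06 to 0.118 over all alternatives) and that from 5 to 20 µg/ml −0.35 (adjusted p = 0.394; 2.3e-05 to 0.394), so that both calls were lost. The other sets of Akr1b10 (mean 3.95) and Calcrl (mean 4.55) were dim and differed less at 500 nm 1000 µg/ml, by −0.51 ± 0.20 and −0.39 ± 0.19. With the mean of both sets Calcrl was called lower from 5 to 50 µg/ml of 10 nm silica, at −0.31 (adjusted p = 0.0266; 0.00036 to 0.507 over all alternatives). For Rin2, Calhm2, Themis2, Spata13 and Cnr2 there is 1 probe set and no such check.

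**Figure D4:**
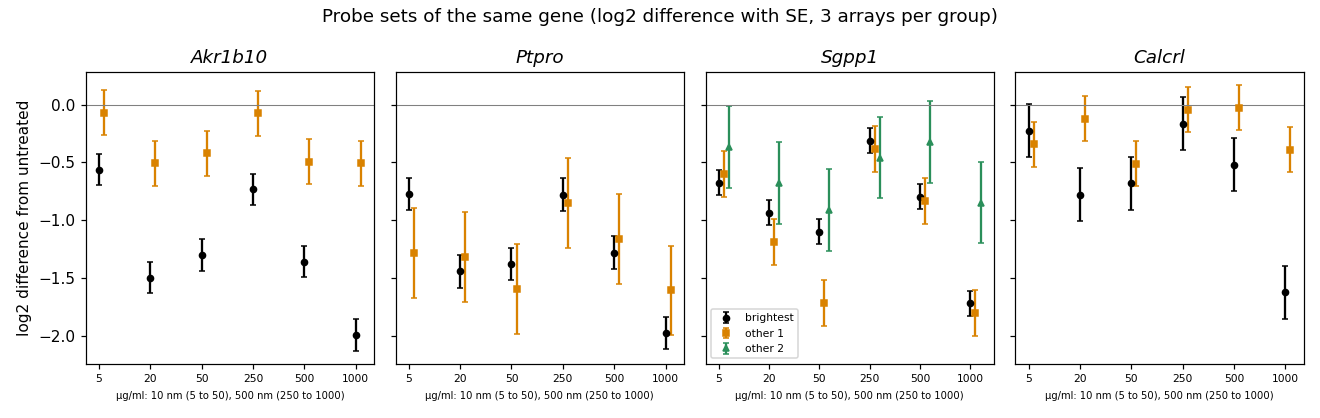
Difference from untreated cells (log2, with SE, 3 arrays a group) of each probe set of the 4 genes that have several, by silica dose in µg/ml; black circles are the brightest set, which gave the values above, and orange squares and green triangles are the others. The means of the other sets lie below 0 in every group. At 500 nm 1000 µg/ml those of Akr1b10, Calcrl and Ptpro and the dimmest of Sgpp1 (green) lie nearer to 0 than the brightest one.

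The 9 genes had positive correlations with one another over all arrays, which the choice of genes that all fell from untreated cells to 500 nm 1000 µg/ml favours. Over the 21 arrays, which share dose steps and hold both of those groups, the 36 pairs of members had Pearson correlations of 0.55 to 0.97 with a median of 0.87. Once each group's mean was taken away, the correlations ran from −0.75 (Calcrl with Cnr2) to 0.74 (Ptpro with Themis2), with a median of −0.094. Over all groups together, Calcrl thus varied with Ptpro (0.73) and Themis2 (0.68) and opposite to Spata13 (−0.71) and Cnr2. These correlations include the third untreated array, which stood apart in Calcrl (8.81), Ptpro (8.91) and Cnr2 (4.82). They were not recomputed without it. Of the 3 untreated arrays, the third gave the highest value of Calcrl, Ptpro, Themis2, Sgpp1 and Akr1b10 and the lowest of Calhm2, Spata13 and Cnr2. On that array 4 control transcripts of the mouse, among them actin and Gapdh, had a mean 3' minus 5' signal of 1.68 log2 units. It was 0.64 and 0.69 on the other 2 untreated arrays. The same signal was 1.43 on the third 10 nm 50 µg/ml array, where Spata13 read 5.24, against 0.72 and 0.72 on its companions, and 1.19 on the third 500 nm 1000 µg/ml array, where Spata13 read 5.73, against 0.79 and 0.58. Its part in these values was not tested.

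Outside the 9, the genes whose values ran most like each member (highest Pearson r over the 21 arrays, with no test) were Cx3cr1 for Akr1b10 (0.94), Ormdl1 for Rin2 (0.97), St8sia4 for Ptpro (0.97), Eif4ebp2 for Calhm2 (0.95) and Zbtb1 for Themis2 (0.96). They were Zyg11b for Sgpp1 (0.94), 2510009E07Rik for Spata13 (0.95), Tnpo1 for Calcrl (0.98) and Adam9 for Cnr2 (0.94). Next in line came St8sia4 and Med22 for Akr1b10 (0.94 and 0.93), Rere and Tor4a for Rin2 (0.97 and 0.96), Chst1 and Med22 for Ptpro (0.95 and 0.95), Mapk14 and Helb for Calhm2 (0.92 and 0.92) and Med22 and Igsf6 for Themis2 (0.96 and 0.96). For the others they were Cdc6 and Atm for Sgpp1 (0.93 and 0.93), Ccdc50 and Rere for Spata13 (0.95 and 0.95), Celf2 and Ccdc47 for Calcrl (0.95 and 0.95) and Ssr1 and Zfyve26 for Cnr2 (0.92 and 0.91). Med22 thus stood near 3 members and St8sia4 and Rere near 2 each. All of these genes fell at 500 nm 1000 µg/ml in value, from −0.46 (Ssr1) to −1.51 (Tor4a).

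In the pathway lists around the 9 genes, calls came about as often as over all genes and in both directions. Of 198 genes in 9 lists built around the members' roles and without the members, 153 were measured. At 10 nm 50 µg/ml against untreated cells 13 were called higher and 16 lower (limma adjusted p under 0.05), against 7.58% and 12.6% of all genes; at 500 nm 1000 µg/ml 5 were called higher and 15 lower, against 5.31% and 10.0%. Fitted on the arrays of the 2 groups compared alone, 9 and 5 genes of the lists were called in place of 29 and 20. The lists' median differences were −0.028 and 0.035, beside 0.036 and 0.073 over all genes. Over all genes the balance of 939 higher to 1567 lower and of 658 to 1240 turns on the scaling of arrays: rescaled to a common median and spread it was 1401 to 749 and 1817 to 587, and centred on the median 1228 to 1241 and 1089 to 878.

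Of the lists around the lipid genes, the sphingolipid one held calls in both directions and the endocannabinoid one only lower calls. Of 25 measured genes of sphingolipid and sphingosine 1-phosphate metabolism and signalling, 3 were called higher and 2 lower at 10 nm 50 µg/ml, and 1 higher and 3 lower at 500 nm 1000 µg/ml. Ormdl1, a brake on serine palmitoyltransferase, fell by 0.82 ± 0.093 and 1.02 ± 0.093 (SE; adjusted p = 3.5e-06 and 2.51e-07). S1pr1, a receptor for sphingosine 1-phosphate, fell by 0.73 ± 0.19 and 0.92 ± 0.19 (adjusted p = 0.00917 and 0.00169). At 10 nm 50 µg/ml its adjusted p ran from 0.000959 to 0.0958 over all alternatives, so that call was not kept in all. Acer2, a ceramidase of the Golgi, rose by 0.98 ± 0.32 at 10 nm 50 µg/ml (adjusted p = 0.038) and differed by 0.70 ± 0.32 at 500 nm 1000 µg/ml (adjusted p = 0.155). Its call was lost without the first or the second untreated array (0.88 and 0.90) or the third 10 nm 50 µg/ml array (0.50), and its adjusted p ran from 0.00106 to 0.242 over all alternatives. Of 9 endocannabinoid genes, 3 were called lower and 0 higher at each dose. Daglb, which makes the endocannabinoid 2-arachidonoylglycerol, fell by 1.02 ± 0.20 and 1.09 ± 0.20 (adjusted p = 0.00112 and 0.00069), and Abhd6, which breaks it down, by 0.64 ± 0.12 and 0.75 ± 0.12 (adjusted p = 0.000631 and 0.000154). Abhd6 at 10 nm 50 µg/ml kept its direction but not its call when arrays were rescaled, at −0.40 (adjusted p = 0.0821; 1.31e-06 to 0.0821 over all alternatives). Naaa, an acid amidase of fatty acid amides, fell by 0.39 ± 0.12 at 500 nm 1000 µg/ml (adjusted p = 0.0273) and stood at −0.089 ± 0.12 at 10 nm 50 µg/ml. The Naaa call was lost under each of quantile normalization, median centring and rescaling and without the first or the second array of either group, with values of −0.41 to −0.22.

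Among receptor and channel genes, too, calls went both ways. Of 9 genes for ligands and partners of the CGRP receptor, 1 was called higher and 0 lower at 10 nm 50 µg/ml and 0 were called at 500 nm 1000 µg/ml. Adm, which encodes adrenomedullin, a ligand of the Calcrl receptor, rose by 0.52 ± 0.11 at 10 nm 50 µg/ml (adjusted p = 0.00322; 0.000212 to 0.0683 over all alternatives). It stood at 0.11 ± 0.11 at 500 nm 1000 µg/ml (adjusted p = 0.558). Of 17 genes for nucleotide-permeable channels and purinergic receptors, 2 were called higher and 2 lower at 10 nm 50 µg/ml and 2 higher and 1 lower at 500 nm 1000 µg/ml. P2ry12, an ADP receptor, fell by 1.43 ± 0.34 and 1.30 ± 0.34 (adjusted p = 0.0059 and 0.0136); the second call was lost without the first untreated array (−1.10) or the third 1000 µg/ml array (−0.91), with adjusted p from 2.13e-05 to 0.0952 over all alternatives. P2ry2, a receptor for ATP and UTP, rose by 0.63 ± 0.18 and 0.72 ± 0.18 (adjusted p = 0.0199 and 0.0109). Its first call was lost without the second or the third untreated or the second 10 nm 50 µg/ml array (0.56 to 0.63), and its second without the first 1000 µg/ml array (0.54). P2ry6, a UDP receptor, fell by 0.56 ± 0.18 at 10 nm 50 µg/ml (adjusted p = 0.0302); its call was lost without the first or the second untreated array (−0.46 and −0.50), without the third 10 nm 50 µg/ml array (−0.32) and after rescaling (−0.30).

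The lists around the phosphatase, the adaptor and the exchange factors held calls in both directions. Of 24 protein tyrosine phosphatase genes, 4 were called higher and 2 lower at 10 nm 50 µg/ml and 0 higher and 3 lower at 500 nm 1000 µg/ml. Ptpn23, a phosphatase-related protein of endosomal sorting, rose by 0.70 ± 0.11 at 10 nm 50 µg/ml (adjusted p = 0.000194), and Ptpn9 fell by 0.58 ± 0.13 (adjusted p = 0.00464). Ptprc, which encodes the leukocyte phosphatase CD45, fell by 0.69 ± 0.14 at 500 nm 1000 µg/ml (adjusted p = 0.00218) and stood at −0.10 ± 0.14 at 10 nm 50 µg/ml. After rescaling, Ptpn9 stood at −0.38 (adjusted p = 0.066; 0.000113 to 0.066 over all alternatives) and Ptprc at −0.26 (adjusted p = 0.565; 5.47e-05 to 0.565), neither called. Of 21 Themis and tyrosine kinase adaptor genes, 1 was called higher and 3 lower at each dose. Dok1, an inhibitory adaptor, fell by 0.88 ± 0.14 at 10 nm 50 µg/ml (adjusted p = 0.00022). Cbl, a ubiquitin ligase, and Syk, a tyrosine kinase, fell by 0.68 ± 0.15 and 0.60 ± 0.13 at 500 nm 1000 µg/ml (adjusted p = 0.00335 and 0.00254), and both calls were lost after rescaling (−0.41 and −0.40).

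Of 23 genes of Rac and Cdc42 exchange factors, these GTPases themselves and their partners, 1 was called higher and 3 lower at 10 nm 50 µg/ml. At 500 nm 1000 µg/ml 0 were called higher and 2 lower. Iqgap1, a scaffold that binds Rac and Cdc42 and is not an exchange factor, was the 1 called higher. It rose by 0.70 ± 0.16 at 10 nm 50 µg/ml (adjusted p = 0.00468; 0.000124 to 0.0941 over all alternatives). Dock1, a Rac exchange factor, fell by 0.58 ± 0.15 at that dose (adjusted p = 0.00839). Fgd4, a Cdc42 exchange factor, fell by 0.75 ± 0.16 at 500 nm 1000 µg/ml (adjusted p = 0.00253). Of 13 genes of Rab5 activation and early endosomes, 1 was called higher and 1 lower at 10 nm 50 µg/ml and 1 higher and 0 lower at 500 nm 1000 µg/ml. Rabgef1, like Rin2 an exchange factor for Rab5, rose by 0.46 ± 0.15 and 0.58 ± 0.15 (adjusted p = 0.0414 and 0.0133), opposite to Rin2. The first Rabgef1 call was lost without the first or the third untreated or the first or the second 10 nm 50 µg/ml array (0.30 to 0.51) and the second without the third untreated array (0.45). Rab5c fell by 0.48 ± 0.16 at 10 nm 50 µg/ml (adjusted p = 0.046), a call lost without any of the 3 untreated arrays or without the first or the third 10 nm 50 µg/ml array (−0.56 to −0.37) and under each scaling alternative (−0.42 to −0.30). Of 12 other aldo-keto reductase genes, 0 were called at either dose by limma. The nearest was Akr1a1, at −0.21 ± 0.085 and −0.099 ± 0.085 (adjusted p = 0.0917 and 0.448), whose sign turned after rescaling (0.43 and 0.45).

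The cells carried macrophage markers throughout. Of 12 macrophage markers 12 were measured and 11 lay above the array median, with a median level of 12.12 on the log2 scale and a summed level of 134.6 to 136.3 over the groups; 0 were called higher and 1 lower at each high dose. Of markers of T cells 1 of 5 measured lay above the median, and of B cells, neutrophils, fibroblasts, epithelial and endothelial cells 0 of 5, 7, 6, 6 and 6. Their summed levels ran from 23.7 to 24.8, 19.9 to 21.3, 28.1 to 30.6, 24.1 to 25.7, 22.5 to 24.1 and 23.2 to 24.7 over the groups, and of all these markers 3 were called higher at 10 nm 50 µg/ml (1 epithelial, 2 endothelial), 1 fibroblast marker at 500 nm 1000 µg/ml and 0 lower. The deposited arrays did not share 1 distribution: their SD ran from 2.46 to 2.67, and replicate 3 had the lowest SD in 7 of 7 groups. The number of arrays limits the precision, and the labels do not call the 3 arrays of a group separate cultures, so the p-values are set by array-to-array spread that could be technical alone.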

How the data were processed

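RNA of RAW 264.7 cells was measured on 21 Affymetrix arrays, 3 in each of 7 groups given by the sample titles. The authors deposited 1 value per probe set and array, made with RMA per the submitters' processing notes, whose version and settings are not stated there. The deposited values, 0.641 to 4.34, were read as log10, since base 10 puts the brightest at 22019 intensity units and base 2 at 20.3, and were multiplied by 3.32 to log2; every fold change rests on this reading. RMA compresses changes of dim probe sets. Of 22690 probe sets, 20393 had 1 symbol; the one with the highest mean stood for each of 12393 genes. The tests used limma 3.58.1 (R 4.3.3; group as the only factor, all 21 arrays, two-sided, Benjamini-Hochberg over all genes, called at adjusted p under 0.05), tested on simulated data. An exact permutation test of 3 against 3 cannot go below 0.1.

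The 9 genes and all lists were chosen with earlier results of these data known. Beside the 9 genes, the text names up to 3 called genes per list with the largest change at either high dose (or the 1 with the smallest p) and the 3 genes most correlated with each of the 9. Alternatives were another scaling (quantile, median centring, common median and spread), array weights, a replicate block, other probe set rules, a filter on dim genes, fits of the compared groups alone, and leaving out each array.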

Additional observations from a re-analysis of the deposited data

Results flagged for a closer look

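Rin2 was the only one of the 9 genes for which the 2 particle sizes were called different in a contrast that the choice of genes did not use. With 10 nm silica at 20 µg/ml its arrays read 6.65, 6.78 and 6.60, and with 500 nm silica at 500 µg/ml 7.31, 7.35 and 7.06, a difference of −0.56 ± 0.13 (SE; limma adjusted p = 0.0232, 0.000221 to 0.12 over the alternatives). All 3 arrays of the first group lay below all 3 of the second, as for 10.5% of all genes. The nominal surface areas of these doses were 4 and 2, so size and area differ together here and cannot be told apart.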

How the results depend on the processing

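Only 3 arrays a group limit these results, and values near the arrays' lower end, as in Cnr2 and Akr1b10, limit the size of a fall that can be read. Unless stated, the cause of a change was not tested. Of the 9 genes, 8 were called lower from 5 to 50 µg/ml of 10 nm silica, and 5 when only the compared groups were fitted, which leaves fewer arrays to estimate the spread. From 250 to 500 µg/ml of 500 nm silica 2 were called, 1 with the mean of all probe sets, 1 with median centring and 7 with array weights. Between the middle doses 1 was called, 0 from the compared groups alone and 5 with array weights; array weights also called 1 rather than 0 between the low doses and from 20 to 50 µg/ml of 10 nm silica, though their estimation stopped before converging. Of the pathway genes, 29 at 10 nm 50 µg/ml became 9 from the compared groups alone and 70 with array weights, and 20 at 500 nm 1000 µg/ml became 5 and 70.

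Leaving out 1 array at a time called 7 to 8 genes of the 9 from 5 to 50 µg/ml, 4 to 5 from 5 to 20 µg/ml (6 with all arrays), 0 to 0 from 20 to 50 µg/ml, 0 to 1 from 250 to 500 µg/ml, 0 to 0 between the low and 0 to 1 between the middle doses, and 22 to 32 and 16 to 23 pathway genes. The members with no overlap with untreated cells then numbered 4 to 5, 8 to 9 and 8 to 9 at the 10 nm doses and 5 to 7, 7 to 8 and 9 to 9 at the 500 nm doses.

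Same-numbered arrays of different groups deviated together in 51 of 63 pairs (correlation over 0.1; lowest −0.24, median 0.46), against 31 of 126 pairs with different numbers (median −0.26), and 15 of 21 arrays correlated best with their own number. This is a hint of shared replicate effects from the data, not the design; as the labels do not tie the numbers and not every same-numbered pair was over 0.1, the fit without the block was kept. With the replicate block 52 and 45 pathway genes were called, and Sgpp1 from 250 to 500 µg/ml (adjusted p = 0.015) and Spata13 from 5 to 20 µg/ml (adjusted p = 0.00304) passed. Over all genes the block, array weights and the compared groups alone gave 4544, 6254 and 692 calls at 10 nm 50 µg/ml against 2506, and 3433, 4854 and 761 at 500 nm 1000 µg/ml against 1898. They gave 2791, 4154 and 433 from 5 to 50 µg/ml against 1452. The block and array weights gave 1103 and 2163 from 5 to 20 µg/ml against 582, 4 and 320 from 20 to 50 µg/ml against 0, 82 and 268 from 250 to 500 µg/ml against 54, 37 and 136 between the low doses against 11, and 577 and 1577 between the middle doses against 317. Testing every probe set gave 3007 at 500 nm 1000 µg/ml and 87 from 250 to 500 µg/ml, and rescaling gave 6 between the low doses.

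Signs turned only where neither value was called, and a range stands for the values without 1 array at a time. From 20 to 50 µg/ml of 10 nm silica they turned for Ptpro (−0.011 with array weights, −0.11 with the mean of probe sets), Spata13 (0.15 with array weights, −0.52 to 0.25), Calcrl (−0.15 with the mean of probe sets, −0.13 to 0.27) and Calhm2 (−0.046 to 0.11). Between the low doses they turned for Ptpro (−0.011 after quantile normalization, −0.21 with the mean of probe sets, −0.070 to 0.059), Cnr2 (−0.017 to 0.24) and Calcrl (−0.13 to 0.047). Between the middle doses Cnr2 turned (0.21 with array weights, −0.21 to 0.12). At 10 nm 50 µg/ml against untreated cells Naaa (0.080 after quantile normalization, 0.078 rescaled, −0.18 to 0.0083), Ptprc (0.42 rescaled, −0.23 to 0.11), Akr1a1 (0.43 rescaled), Fgd4 (0.019 with the mean of probe sets) and Cbl (−0.029 to 0.34) turned. At 500 nm 1000 µg/ml Akr1a1 (0.45 rescaled), Rab5c (−0.18 with array weights, −0.082 to 0.13) and Iqgap1 (−0.0061 to 0.36) turned. Cnr2 fell out under the filter on genes with a mean under 5.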
